A study of Mus musculus with 18 samples.

Results

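Intermediate filament genes were examined in RNA of the right mouse hippocampus after intrahippocampal kainic acid (KA). The 9 genes were taken by symbol from the 55291 gene symbols of the count and FPKM tables, and all 9 had reads in each of the 18 libraries. They are the astrocyte filament genes Gfap, Vim, Nes and Synm, the neurofilament genes Nefl, Nefm, Nefh and Ina, and the lamin gene Lmna. Wild-type male C57BL/6J mice received AAV-DJ with GfaABC1D-EGFP-Rpl10a in the right CA3 at 6 weeks of age. GfaABC1D is a short astrocyte promoter derived from the GFAP gene, and EGFP-Rpl10a is a GFP-tagged protein of the large ribosomal subunit, so that ribosomes of infected cells can be pulled down with an anti-GFP antibody. All groups carried this AAV. The AAV control group had the AAV alone and gave RNA 2 weeks later. In the KA group, 50 nL of 20 mM KA, a glutamate receptor agonist, was injected into the right dentate gyrus 2 weeks after the AAV and the tissue was taken 14 days later. The PBS group received PBS after the AAV. Each group had 3 samples, each pooling the right hippocampi of 3 to 4 mice. From each homogenate, IP RNA was bound to the tagged ribosomes and input RNA represented the whole hippocampus. The tag was thus driven by a promoter derived from GFAP, and mouse Gfap is one of the genes measured here. IP RNA was enriched for RNA of infected cells but not limited to it.

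Intermediate filaments are ropes of coiled-coil proteins that give cells mechanical strength, and which proteins build them depends on the cell type. Mature astrocytes use mainly GFAP with vimentin, and nestin and synemin join these filaments in developing or reactive astrocytes. Neurons build the axonal skeleton from the light, medium and heavy neurofilament chains with internexin alpha. Lamin A and C, both made from Lmna, line the inner nuclear membrane of most cell types. Higher GFAP and vimentin are the classical signs of astrocyte reactivity in the sclerotic hippocampus.

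The genes lie apart in the genome except for one pair. In mm10 (GRCm38), Gfap is on the minus strand of chr11:102887336-102900912 and Vim on the plus strand of chr2:13573927-13582826. Nefl (chr14:68083863-68089095, plus strand) lies within the span of Nefm (chr14:68082590-68124846, minus strand), and their exons share 1108 bases on opposite strands. It is not given in the sources used here whether reads were counted by strand, so reads from the shared bases cannot be told apart. Nes (chr3:87971078-87980451, plus strand) and Lmna (chr3:88480147-88509956, minus strand) are on the same chromosome and overlap no other annotated gene. Synm (chr7:67730160-67759742, minus strand) shares 84 exon bases with Ttc23 and 426 with Gm45102, and Ina (chr19:47014698-47025327, plus strand) shares 456 with Nt5c2, all on the opposite strand. Gfap and Nefm also overlap noncoding genes without sharing exon bases. Nefh (chr11:4938754-4948064, minus strand) and Vim overlap no other annotated gene.

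Gfap and Vim rose together in every comparison of the KA group, so the 250 bases before their RefSeq start sites (GRCm38.p6) are shown, 5′ to 3′ on the gene's strand. The interval is chr11:102897201-102897450 on the minus strand for Gfap and chr2:13574061-13574310 on the plus strand for Vim. Both strands were searched for 4 short motifs, and capitals mark the matches. The letters searched were TTCNNNGAA for STAT factors and TGANTCA for the factor pair AP-1. For the core promoter they were TATAAA, named the TATA box here, and for NF-Y sites CCAAT, none of which overlapped another match.
Gfap: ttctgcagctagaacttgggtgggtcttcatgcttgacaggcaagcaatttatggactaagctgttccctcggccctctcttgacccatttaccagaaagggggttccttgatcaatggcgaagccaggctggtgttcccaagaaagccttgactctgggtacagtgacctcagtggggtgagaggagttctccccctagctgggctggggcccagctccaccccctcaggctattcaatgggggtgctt
Vim: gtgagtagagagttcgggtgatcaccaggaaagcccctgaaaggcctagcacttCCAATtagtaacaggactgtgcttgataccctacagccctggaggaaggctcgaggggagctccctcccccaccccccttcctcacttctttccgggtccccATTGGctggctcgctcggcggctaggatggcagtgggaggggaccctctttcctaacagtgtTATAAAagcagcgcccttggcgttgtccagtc
The Vim sequence holds a TATA box from 32 to 27 bases before the start site and 2 CCAAT boxes, from 196 to 192 and from 94 to 90 bases before it. The Gfap sequence holds none of these letters, and neither sequence holds those of STAT or AP-1. Among 32851 RefSeq mouse promoters of this length, 7.02% hold the STAT letters, 6.75% those of AP-1, 12.4% those of the TATA box and 33.8% those of the CCAAT box. Of the 9 genes, 6 had an entry. Nefl, Nefm and Nefh had none.

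The libraries held between 7991681 and 16032180 counts (median 10313125). Within a group, pairs of libraries differed by 4.48 to 109 times the variance of counting noise, so none was a repeat of another. Run 1 held KA and AAV control samples #1 and #2, run 2 their samples #3, and run 3 every PBS sample, so that for PBS the run and the group cannot be told apart. Rpl10a, whose coding sequence the tag carries, was at 196 to 343 FPKM in IP and 34.7 to 53.8 FPKM in input. As a check of the cell type, all 12 astrocyte markers were higher in IP than in input of the AAV control group, and all 11 neuron markers tested were lower there. Of all genes, 13.3% passed there as higher and 13.1% as lower, at a log2 difference of at least 1. The 12 astrocyte markers were also higher in KA IP, with a median log2 difference of 1.72 against 2.93 in AAV control. Oligodendrocyte lineage markers summed to 1287 to 2450 FPKM in KA IP and 729 to 934 FPKM in KA input. The samples are pools of different mice, and the 3 samples of a group are the replicates of every test.

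In IP of the AAV control group, Gfap was the most abundant of the 9 genes at 677 ± 146 FPKM (SD, n = 3), a level per length of gene. Vim (27.9 ± 1.0 FPKM) and Nefl (27.7 ± 4.00 FPKM) followed with overlapping ranges. Ina (15.3 ± 1.45 FPKM), Nefm (9.03 ± 1.57 FPKM), Nefh (6.47 ± 2.97 FPKM), Synm (4.76 ± 1.62 FPKM) and Lmna (3.21 ± 0.529 FPKM) came next, and the ranges of Nefm and Nefh, Nefh and Synm, and Synm and Lmna overlapped. Nes was below 1 FPKM in all 3 libraries. In input of the same group the order was different, with Nefl (107 ± 9.51 FPKM) and Ina (63.4 ± 3.03 FPKM) above Gfap (34.6 ± 11.0 FPKM) and Nefm (25.5 ± 2.94 FPKM). Whole hippocampus was thus led by neurofilament transcripts and the IP fraction by Gfap.

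The 9 genes can be read as a mix within each library. Gfap and Vim together made up 91.0% ± 2.59 (SD, n = 3) of the summed FPKM of the 9 genes in IP of the AAV control group, 92.7% ± 3.91 in PBS and 96.6% ± 0.583 in KA. In input they made up 15.0% ± 4.66 in AAV control, 18% ± 1.97 in PBS and 66.5% ± 1.67 in KA. The neurofilament genes made up 82.0% ± 4.67 of the input sum in AAV control, 79.4% ± 2.03 in PBS and 32.2% ± 1.58 in KA, and their summed level was 174 to 219 FPKM in KA input and 188 to 225 FPKM in the other input libraries. Per length, Gfap and Vim transcripts were more abundant than those of the 4 neurofilament genes in all 3 KA input libraries and less abundant in all 6 control input libraries.

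**Figure D1:**
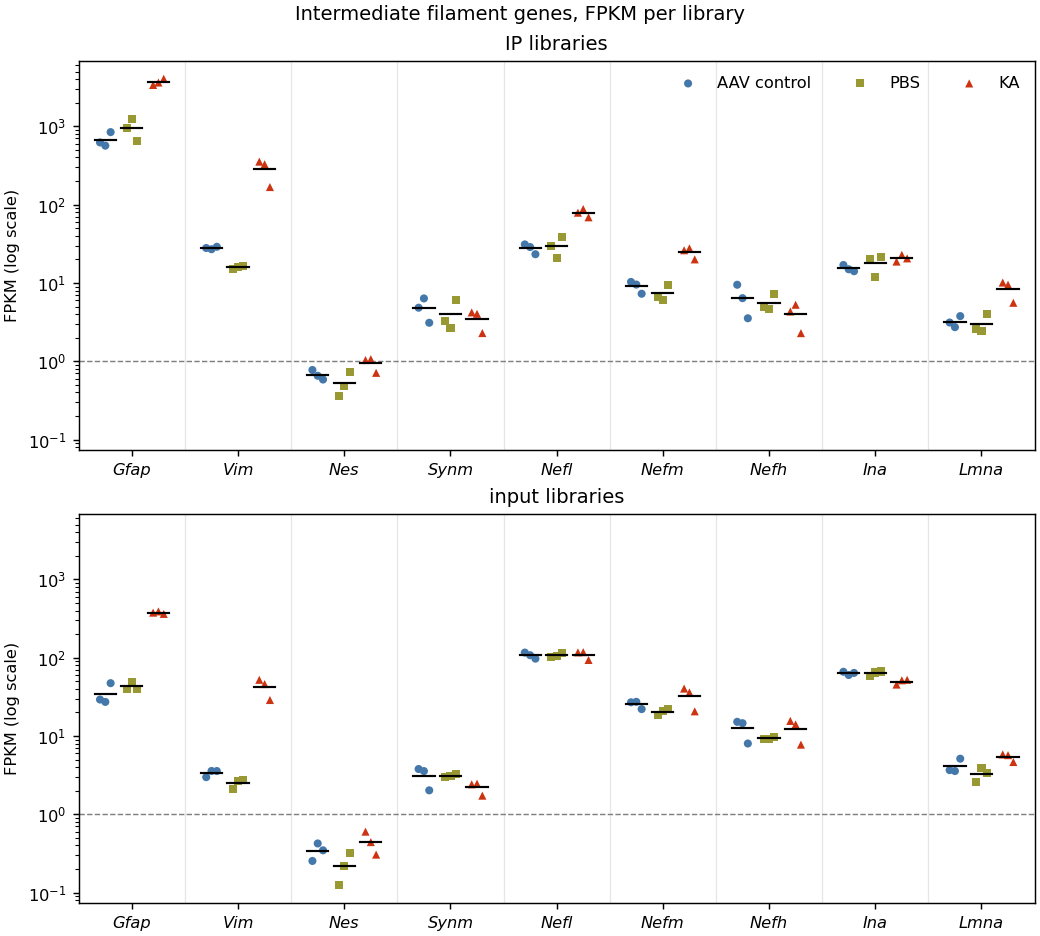
FPKM of the 9 genes in each library (log axis), IP above and input below, with 1 point per library and a black line at the mean of the 3 samples of a group. The dashed line marks 1 FPKM. All KA points of Gfap and Vim lie above all control points in both kinds of library, while those of Nefl and Nefm do so in IP and overlap the controls in input.

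Gfap encodes the main filament protein of astrocytes. In IP it was at 622, 566 and 843 FPKM in AAV control samples #1 to #3, at 958, 1225 and 655 FPKM in PBS and at 3377, 3624 and 4051 FPKM in KA. Every KA library was above every control library. Gfap rose 5.62-fold against AAV control (log2 fold change 2.49 ± 0.330 SE, adjusted p = 0.00265, edgeR quasi-likelihood test) and 3.83-fold against PBS (1.94 ± 0.486, adjusted p = 0.0109). The call against PBS was lost without PBS sample #1 (adjusted p = 0.0636). In input it was at 29.2, 27.3 and 47.3 FPKM in AAV control, 40.0, 49.4 and 39.5 FPKM in PBS and 376, 390.0 and 363 FPKM in KA. The rise in input was 10.7-fold against AAV control (3.42 ± 0.294, adjusted p = 9.77e-04) and 8.68-fold against PBS (3.12 ± 0.152, adjusted p = 2.56e-07).

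Vim encodes vimentin, the filament protein of immature and reactive astrocytes and also of endothelial, ependymal and many mesenchymal cells. Vim in IP was at 27.9, 26.9 and 28.9 FPKM in AAV control, 15.2, 15.8 and 16.3 FPKM in PBS and 354, 328 and 168 FPKM in KA. The groups did not overlap, and KA sample #3, from run 2, was the lowest of its group. Vim rose 10.3-fold against AAV control (3.37 ± 0.290, adjusted p = 4.97e-04) and 17.7-fold against PBS (4.14 ± 0.320, adjusted p = 1.78e-05). In input it was at 2.98, 3.58 and 3.57 FPKM in AAV control, 2.10, 2.68 and 2.72 FPKM in PBS and 52.2, 46.1 and 28.8 FPKM in KA. It rose 12.3-fold (3.63 ± 0.228, adjusted p = 6.40e-04) and 16.7-fold (4.06 ± 0.186, adjusted p = 1.85e-07) there. Vim was thus the gene of the 9 with the largest fold change in all 4 comparisons of KA with a control group.

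Within run 1, with 2 samples a group, the log2 fold change against AAV control in IP was 2.61 ± 0.139 for Gfap and 3.69 ± 0.116 for Vim. In run 2, with 1 sample a group and no test, the IP levels were 4.80-fold and 5.79-fold higher in KA. Vim thus had the larger change of the pair in both runs, and the gap between them was smaller in run 2, where each group was 1 sample. Run 1 alone was a setting chosen after seeing the data, and an adjusted p under 0.05 was common in it. There 4586 of 9729 genes passed in IP and 4696 of 10809 in input, against 1960 and 485 in the main fits. The run 1 values of Synm, Nefm, Nefh, Ina and Lmna below stand beside these counts.

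Nes encodes nestin, known from neural progenitors and reactive astrocytes. Nes was the least abundant of the 9 genes in every group. Its IP level was at 0.773, 0.652 and 0.584 FPKM in AAV control, 0.360, 0.478 and 0.727 FPKM in PBS and 1.04, 1.06 and 0.711 FPKM in KA, and its counts in these 9 libraries ranged from 35 to 74. The KA range overlapped both control ranges. Nes did not reach FPKM above 1 in all compared libraries and was not tested in the main fits. With the filter of edgeR's filterByExpr in place of the FPKM minimum, its log2 fold change in IP was 0.59 ± 0.252 against AAV control (adjusted p = 0.134) and it rose by 1.02 ± 0.314 against PBS (adjusted p = 0.0196). With the same filter, its input value was 0.35 ± 0.351 against AAV control (adjusted p = 0.654) and 0.99 ± 0.378 against PBS (adjusted p = 0.0710).

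Synm encodes synemin, a large partner that needs vimentin or another filament protein to assemble. It was not a DEG, defined by an adjusted p under 0.05 and a log2 fold change of at least 1 in size, in any comparison of KA with a control group. Synm in IP was at 4.83, 6.34 and 3.10 FPKM in AAV control, 3.30, 2.66 and 6.09 FPKM in PBS and 4.2, 4.03 and 2.29 FPKM in KA, with overlapping groups. Its log2 fold change in IP was -0.38 ± 0.266 against AAV control (adjusted p = 0.355) and -0.17 ± 0.267 against PBS (adjusted p = 0.634). In input it was at 3.79, 3.56 and 2.02 FPKM in AAV control, 2.97, 3.08 and 3.27 FPKM in PBS and 2.42, 2.46 and 1.73 FPKM in KA. Synm fell in input against PBS (-0.51 ± 0.130, adjusted p = 0.0145, and 0.0540 without PBS sample #2) and had nearly the same value against AAV control without passing the test (-0.49 ± 0.220, adjusted p = 0.296). Within run 1 the value against AAV control in input was -0.59 ± 0.130 (adjusted p = 5.53e-04).

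Nefl encodes the light neurofilament chain, which all neurofilaments need to assemble. Nefl in IP was at 31.0, 28.7 and 23.3 FPKM in AAV control, 29.5, 20.6 and 38.3 FPKM in PBS and 78.9, 87.7 and 68.9 FPKM in KA. All KA libraries were above all control libraries. It rose 2.95-fold against AAV control (1.56 ± 0.164, adjusted p = 0.00103) and 2.70-fold against PBS (1.44 ± 0.205, adjusted p = 6.51e-04). In input, where it was the most abundant neurofilament gene, it was at 116, 108 and 97.3 FPKM in AAV control, 103, 106 and 114 FPKM in PBS and 117, 118 and 93.5 FPKM in KA. All 3 groups overlapped there, with a log2 fold change of 0.03 ± 0.138 against AAV control (adjusted p = 0.936) and 0.01 ± 0.105 against PBS (adjusted p = 0.949).

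Nefm encodes the medium chain. Nefm in IP was at 10.3, 9.53 and 7.28 FPKM in AAV control, 6.64, 6.06 and 9.42 FPKM in PBS and 26.1, 27.7 and 20 FPKM in KA, again without overlap. It rose 2.83-fold against AAV control (1.5 ± 0.167, adjusted p = 0.00130) and 3.36-fold against PBS (1.75 ± 0.183, adjusted p = 1.07e-04). In input it was at 27.0, 27.3 and 22.1 FPKM in AAV control, 18.5, 20.9 and 22.2 FPKM in PBS and 40.4, 36.0 and 20.7 FPKM in KA. Samples #1 and #2 of KA were above all controls and sample #3 was within them. The input value was 0.34 ± 0.210 against AAV control (adjusted p = 0.471), 0.49 ± 0.0750 within run 1 (adjusted p = 7.62e-06) and 0.63 ± 0.174 against PBS (adjusted p = 0.0212). The value against PBS passed the test in 1 of the 6 fits that left out 1 library, the one without KA sample #3.

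Nefh encodes the heavy chain, which in mature axons carries the phosphorylated side arms. Nefh was not a DEG in any comparison of KA with a control group. In IP this gene was at 9.48, 6.39 and 3.54 FPKM in AAV control, 4.94, 4.65 and 7.13 FPKM in PBS and 4.32, 5.26 and 2.28 FPKM in KA, with overlapping groups. Its log2 fold change in IP was -0.65 ± 0.359 against AAV control (adjusted p = 0.245), -0.67 ± 0.201 within run 1 (adjusted p = 0.0201) and -0.50 ± 0.253 against PBS (adjusted p = 0.145). In both groups with 2 runs, sample #3 had the lowest Nefh of its group in IP and in input. In input the values were -0.01 ± 0.268 against AAV control (adjusted p = 0.991) and 0.39 ± 0.182 against PBS (adjusted p = 0.133).

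Ina encodes internexin alpha, a neurofilament protein of the central nervous system. Ina in IP was at 16.9, 14.9 and 14.1 FPKM in AAV control, 20.1, 11.9 and 21.6 FPKM in PBS and 18.7, 22.8 and 20.6 FPKM in KA. KA was above AAV control in every library but overlapped PBS. The log2 fold change in IP was 0.49 ± 0.160 against AAV control (adjusted p = 0.0654, and 0.0352 with the sample number as a block) and 0.24 ± 0.198 against PBS (adjusted p = 0.366). In input Ina was at 66.1, 60.1 and 63.9 FPKM in AAV control, 57.6, 64.7 and 66.7 FPKM in PBS and 45.4, 51.4 and 52.2 FPKM in KA. All KA libraries were below all controls there. Ina fell against PBS (-0.35 ± 0.111, adjusted p = 0.0395), a call that held in 1 of the 6 fits that left out 1 library, and its value against AAV control was -0.35 ± 0.15 (adjusted p = 0.278). With the sequencing run as a covariate the value against AAV control was -0.35 ± 0.0940 (adjusted p = 0.0345), and within run 1 it was -0.38 ± 0.0767 (adjusted p = 2.08e-04).

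Lmna encodes lamins A and C of the nuclear lamina. Lmna in IP was at 3.12, 2.72 and 3.77 FPKM in AAV control, 2.59, 2.46 and 3.96 FPKM in PBS and 10.1, 9.49 and 5.58 FPKM in KA. No KA library overlapped a control library. It rose 2.65-fold against AAV control (1.41 ± 0.246, adjusted p = 0.00773) and 2.80-fold against PBS (1.49 ± 0.223, adjusted p = 8.46e-04). Within run 1 the log2 fold change against AAV control in IP was 1.80 ± 0.129, and in run 2 the level was 1.48-fold higher. In input Lmna was at 3.67, 3.57 and 5.13 FPKM in AAV control, 2.61, 3.85 and 3.38 FPKM in PBS and 5.82, 5.70 and 4.65 FPKM in KA. It rose against PBS (0.70 ± 0.135, adjusted p = 0.00390), and its value against AAV control was 0.36 ± 0.204 (adjusted p = 0.415), with 0.67 ± 0.123 in run 1 (adjusted p = 8.36e-05) and -0.14 between the lone samples of run 2. The B-type lamin genes Lmnb1 and Lmnb2 were at 0.739 to 1.55 FPKM and 0.815 to 1.53 FPKM in the 9 IP libraries, and neither was tested in IP because some library was not above 1 FPKM.

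Counted together, 5 of the 8 genes tested in IP were DEGs against AAV control, all higher, where 11.6% of the 9729 genes tested were DEGs and 6.39% were higher. Against PBS the same 5 genes, Gfap, Vim, Nefl, Nefm and Lmna, were DEGs, where 17.4% of 9847 genes were DEGs and 8.08% were higher. The median log2 fold change of the 8 genes was 1.45 against AAV control and 1.46 against PBS, and that of all genes tested was -0.02 and -0.01. All 3 KA libraries were above all 3 control libraries for 6 genes against AAV control (the same 5 and Ina) and for 5 against PBS, as for 16.8% and 22.7% of all genes tested. In input, Gfap and Vim were DEGs against AAV control, where 2.7% of 10809 genes were, and against PBS, where 5.35% of 10849 genes were. The 292 DEGs against AAV control in input became 133 without KA sample #1, 181 without KA sample #2 and 588 without AAV control sample #3, and Gfap and Vim were DEGs in each of these fits. At an adjusted p under 0.05 alone, 6 of the 8 passed against PBS in input, and 27.7% of all genes did. The comparisons with AAV control and with PBS share the KA samples. In the fits that left out 1 library, 5 genes were DEGs against AAV control in IP and 4 or 5 against PBS.

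**Figure D2:**
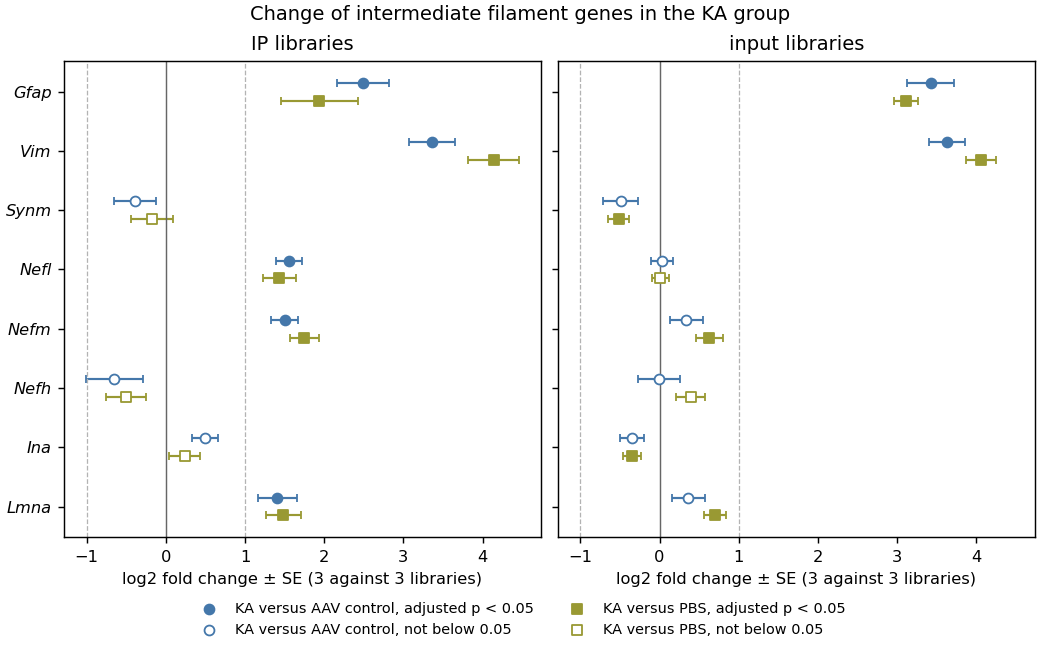
Log2 fold change (x axis) of the 8 genes tested, for KA against AAV control (circles) and against PBS (squares) in IP (left) and input (right), with bars of 1 SE and filled symbols where the adjusted p was under 0.05. Dashed lines mark a change of 1 in either direction. Gfap and Vim lie to the right of 1 in both panels, Nefl, Nefm and Lmna in the IP panel only, and Synm and Nefh lie left of 0 in IP.

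PBS was also compared with AAV control. These groups differ in the injection and in run, and may differ in time after the AAV, which is not given here for PBS. These differences cannot be told apart here. None of the 8 genes passed the test in IP or in input by edgeR, DESeq2 or limma-voom, where 0% of the 10667 genes tested in IP and 0% of the 10924 tested in input were DEGs by edgeR. At an unadjusted p under 0.05, edgeR had 10.8% of all genes in IP and 8.25% in input, and DESeq2 called 16 and 14 DEGs. Vim was lower in all 3 PBS libraries than in all 3 AAV control libraries in IP (-0.79 ± 0.198, unadjusted p = 0.00255, adjusted p = 0.436) and in input (-0.42 ± 0.168, unadjusted p = 0.0379, adjusted p = 0.577), and 8.53% and 5.9% of all genes were lower in PBS without overlap. The number of DEGs rose from 0 to 546 in IP without AAV control sample #3, and Vim then passed the test (-0.71, adjusted p = 0.0356). Without the input library of that sample there were 365 DEGs, and Gfap was higher in PBS (0.69, adjusted p = 4.33e-04) and Nefm and Nefh lower (-0.33, adjusted p = 0.00617, and -0.60, adjusted p = 2.07e-04).

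The IP to input ratio of a gene within a homogenate shows how strongly its transcript was enriched on the tagged ribosomes. In AAV control, the FPKM of Gfap was 20 ± 1.87 times (SD, n = 3) as high in IP as in input, that of Vim 8.33 ± 0.935 times and that of Nes 2.09 ± 0.834 times. Synm (1.53 ± 0.252) and Lmna (0.783 ± 0.0609) were near 1. The neurofilament genes were depleted, at 0.501 ± 0.107 for Nefh, 0.353 ± 0.0264 for Nefm, 0.258 ± 0.0161 for Nefl and 0.242 ± 0.0186 for Ina. Astrocyte filament genes and neurofilament genes thus lay on opposite sides of 1 in the AAV control group, and also in PBS apart from 1 Synm homogenate (0.863).

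By the test of IP against input in AAV control, Gfap (4.44 ± 0.393, adjusted p = 1.78e-04) and Vim (3.20 ± 0.190, adjusted p = 1.02e-04) were higher in IP. Nefl (-1.80 ± 0.160, adjusted p = 1.77e-04), Nefm (-1.35 ± 0.157, adjusted p = 5.11e-04) and Ina (-1.90 ± 0.156, adjusted p = 1.48e-04) were lower. These were 5 DEGs of 8 genes, where 26.4% of 9961 genes were DEGs. Synm (0.75, adjusted p = 0.0694) and Nefh (-0.82, adjusted p = 0.0991) passed the test only with the homogenate as a block (adjusted p = 0.00113 and 9.63e-04). In PBS the same 5 genes were DEGs, where 27.1% of 10401 genes were, Nefh was lower as well (-0.63 ± 0.146, adjusted p = 0.00288), and Synm (0.45, adjusted p = 0.0669) passed with the block (adjusted p = 0.0357). With the block, 6102 of 9961 genes passed in AAV control and 6353 of 10401 in PBS.

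In the KA group the IP to input ratio of Gfap was 9.81 ± 1.19, below all 6 control homogenates, while that of Vim was 6.57 ± 0.674 and overlapped theirs (5.88 to 9.36). Nefl was at 0.718 ± 0.0386 and Nefm at 0.795 ± 0.162, above all control homogenates, and Ina at 0.417 ± 0.0248 and Lmna at 1.53 ± 0.292 were above them too. Nefh went the other way, to 0.315 ± 0.0520. The share of all genes whose KA ratios lay outside those of the controls is not given here. By the test of IP against input in KA, Gfap (3.52 ± 0.262, adjusted p = 6.42e-05) and Vim (2.95 ± 0.288, adjusted p = 2.04e-04) were higher in IP, and Nefh (-1.44 ± 0.287, adjusted p = 0.00592) and Ina (-1.05 ± 0.151, adjusted p = 0.00126) lower, 4 DEGs of 8 genes where 12.6% of 10098 genes were. Synm (0.88 ± 0.197, adjusted p = 0.0102) and Lmna (0.84 ± 0.175, adjusted p = 0.00732) were higher in IP with smaller changes, each missing the threshold without KA sample #1 or #2. At an adjusted p under 0.05 alone, 6 of 8 genes passed in PBS and in KA, as did 56.3% and 34.4% of all genes. Nefl had a value of -0.26 ± 0.130 (adjusted p = 0.160, and 0.0321 with the homogenate as a block) and Nefm one of -0.17 ± 0.204 (adjusted p = 0.564). With the block, 5336 of 10098 genes passed in KA. Nefh missed the threshold without KA sample #1 (adjusted p = 0.0746).

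**Figure D3:**
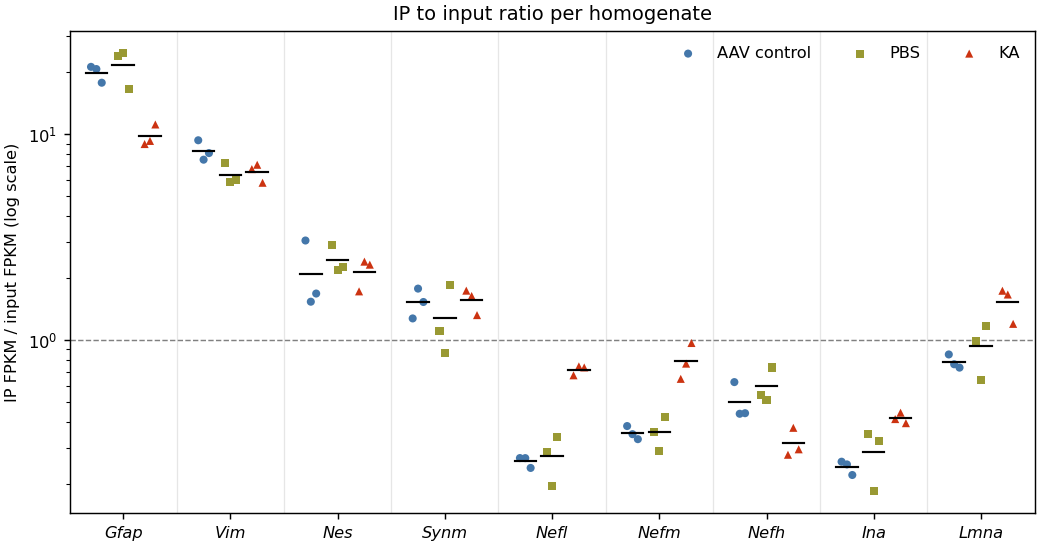
FPKM in IP divided by FPKM in input of the same homogenate (log axis) for the 9 genes, with 1 point per homogenate and a black line at the mean of a group. The dashed line marks equal levels. In KA the points of Gfap and Nefh lie below those of both control groups, and the points of Nefl, Nefm, Ina and Lmna lie above them.

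An interaction contrast compared the KA effect in IP with that in input, in the 12 libraries of KA and a control group. With AAV control as the baseline, the log2 change in IP exceeded that in input by 1.55 ± 0.185 for Nefl (adjusted p = 4.80e-04), 1.18 ± 0.273 for Nefm (adjusted p = 0.0142) and 0.86 ± 0.199 for Ina (adjusted p = 0.0146). Nefl and Nefm were called (2 of 8 genes, with 9.42% of 9180 genes called), and at an adjusted p under 0.05 alone 3 of 8 passed, with 13.2% of all genes. The count was 1 without AAV control sample #1 or #2 or KA sample #2, where Nefm and Ina missed the threshold, 4 without AAV control sample #3 and 4 in run 1 alone. With PBS as the baseline, the values were 1.42 ± 0.218 for Nefl (adjusted p = 7.06e-04), 1.12 ± 0.256 for Nefm (adjusted p = 0.00701) and 0.78 ± 0.260 for Lmna (adjusted p = 0.0402), and again Nefl and Nefm were called, where 13.9% of 9305 genes were (25.5% at an adjusted p under 0.05 alone). The Lmna call was lost without PBS sample #1 or #2 or KA sample #1 or #2.

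Gfap had the opposite sign, with a smaller rise in IP than in input (-0.92 ± 0.423, adjusted p = 0.186 with AAV control, and -1.20 ± 0.450, adjusted p = 0.0649 with PBS). With the homogenate as a block it passed the test in both (adjusted p = 0.0124 and 0.0288), as did 3286 of 9180 genes and 3479 of 9305. The same held for Nefh (-0.62, adjusted p = 0.473, and 0.0286 with the block for AAV control, and -0.89, adjusted p = 0.0642, and 0.00312 with the block for PBS). Lmna with AAV control (1.05, adjusted p = 0.0560) and Ina with PBS (0.58, adjusted p = 0.0743) also passed with the block (adjusted p = 5.98e-04 and 0.0197). For Vim the values were -0.25 ± 0.352 (adjusted p = 0.726) and 0.07 ± 0.343 (adjusted p = 0.892), so no difference in the Vim change between IP and input was detectable at this precision. By the same contrasts, 8 of 12 astrocyte markers were called lower with each baseline, where 4.32% (AAV control) and 8.88% (PBS) of all genes were. Their medians were -1.34 and -1.28, and without 1 sample the count was 4 to 9. With AAV control, 8 of 12 listed neuron markers were called in either direction, where 9.42% of all genes were. The count was 2 or 3 without AAV control sample #1 or #2 or KA sample #2. The neuron marker count with PBS as the baseline is not given here. In bulk RNA, fewer cells of a type and less RNA per cell cannot be told apart, in input or between the cells that carry the tag.

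Ratios between filament genes within a library do not depend on its depth. They were tested by two-sided exact permutation tests of log2 ratios of FPKM + 1, for which 3 against 3 samples cannot give a p below 0.1, over 16 comparisons. After Benjamini-Hochberg adjustment over these, each p of 0.1 became 0.178. The Vim to Gfap ratio in IP was 0.0449, 0.0476 and 0.0343 in AAV control, 0.0158, 0.0129 and 0.0249 in PBS and 0.105, 0.0905 and 0.0414 in KA. It was above all PBS libraries (exact permutation p = 0.1, the smallest possible) and overlapped AAV control (exact permutation p = 0.3). In input, KA (0.139, 0.118 and 0.0795) overlapped AAV control (0.102, 0.131 and 0.0755; exact permutation p = 0.6), and each of its ratios was above each of PBS (0.0525, 0.0544 and 0.0688). With 1 added to each FPKM for the test, KA and PBS overlapped in input (exact permutation p = 0.2), and with 0.1 added they did not (exact permutation p = 0.1).

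Among the neurofilament chains in IP, the Nefh to Nefl ratio was 0.305, 0.223 and 0.152 in AAV control, 0.168, 0.225 and 0.186 in PBS and 0.0547, 0.0600 and 0.0332 in KA. Each KA library was below each control library (difference of log2 ratios -2.03 against AAV control and -1.86 against PBS, exact permutation p = 0.1 in each, the smallest possible). In input the KA ratios (0.133, 0.119 and 0.0829) overlapped those of AAV control (0.130, 0.135 and 0.0824; exact permutation p = 0.8), and 2 of them were above all PBS ratios (0.0890, 0.0861 and 0.0852; exact permutation p = 0.4). The mean Nefm to Nefl ratio in IP was 0.312 ± 0.0207 in KA, 0.326 ± 0.0109 in AAV control and 0.255 ± 0.0349 in PBS (difference of log2 ratios -0.12, exact permutation p = 0.1, and 0.20, exact permutation p = 0.3). In input it was 0.291 ± 0.0634 in KA, 0.237 ± 0.0145 in AAV control and 0.191 ± 0.00963 in PBS. Each KA input library was above each PBS input library (0.56, exact permutation p = 0.1, the smallest possible), and KA overlapped AAV control (0.26, exact permutation p = 0.4).

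The Lmna to Vim ratio in IP was 0.114 ± 0.0148 in AAV control, 0.190 ± 0.0469 in PBS and 0.0303 ± 0.00262 in KA. In input it was 1.22 ± 0.220, 1.31 ± 0.110 and 0.132 ± 0.0261. KA did not overlap either control in IP or input (exact permutation p = 0.1 in each of the 4 comparisons, the smallest possible).

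**Figure D4:**
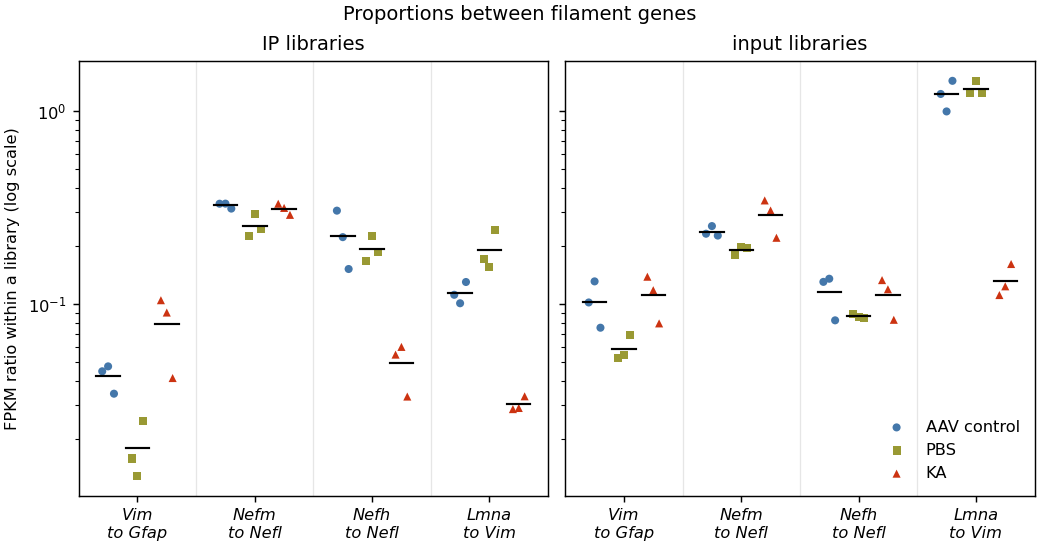
FPKM ratios between filament genes within each library (log axis), in IP (left) and input (right), with 1 point per library and a black line at the group mean. In IP the Nefh to Nefl and Lmna to Vim ratios of KA lie below all control libraries, and in input the Lmna to Vim ratio does.

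Several lists of cell type markers differed between KA and the control groups, not all in the direction of these genes. Their part in the results was not tested. In IP, the summed FPKM of 12 neuron markers, none of them at 0, was 165 to 192 in AAV control, 173 to 305 in PBS and 287 to 402 in KA. Against AAV control, 6 of the 11 neuron markers tested were higher DEGs and 1, Neurod6, a lower one, where 6.39% and 5.22% of all genes were. Their median log2 fold change was 1.25. The count of 7 was 3 or 4 without AAV control sample #1 or #2 or KA sample #2 or #3. Against PBS, 1 of 11 was higher and 1 lower, near the share of all genes (8.08% and 9.34%), with a median of 0.57. The count of 2 was 5 without KA sample #1 and 4 without PBS sample #1. Nefl and Nefm rose in IP beside these, by 1.56 and 1.5 against AAV control and by 1.44 and 1.75 against PBS. In input the summed neuron markers were lower in KA (816 to 916 FPKM) than in AAV control (1154 to 1375 FPKM) and PBS (1275 to 1353 FPKM), where Nefl ranged from 93.5 to 118 FPKM over all 9 libraries.

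The summed FPKM of 12 astrocyte markers, Gfap and Vim not among them, was 6503 to 9300 in AAV control, 6490 to 11134 in PBS and 3520 to 4145 in KA, in IP. Of the 12, 4 were lower DEGs and none a higher one against each control, where 5.22% (AAV control) and 9.34% (PBS) of all genes were lower DEGs. These counts were 1 or 2 without AAV control sample #1 or #2 or KA sample #1 or #2 in the first comparison, and without any 1 KA sample or PBS sample #1 in the second. In input the sum was higher in KA (1144 to 1208 FPKM) than in AAV control (589 to 917 FPKM) and PBS (808 to 949 FPKM). There 4 and 5 markers were higher DEGs (1 and 2 in place of 4 without KA sample #1 and AAV control sample #1), where 2.52% and 4.26% of all genes were. Markers of microglia, a cell type outside the promoter's target, were at 1478 to 2342 FPKM in KA input against 118 to 266 in AAV control and 155 to 181 in PBS, and at 36.8 to 65.0 FPKM in KA IP against 15.2 to 30.7 in the control groups.

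Of the cell types besides astrocytes that use vimentin, endothelial and mural markers summed to 60.2 to 77.9 FPKM in KA input against 50.2 to 62.3 in both control groups, and to 9.90 to 18.6 FPKM in KA IP against 11.8 to 55.7. Meningeal fibroblast markers were at 14.4 to 18.2 FPKM in KA input against 6.73 to 15.5 in AAV control and 9.36 to 16.6 in PBS, and at 0.824 to 0.934 FPKM in KA IP against 1.10 to 2.21 and 0.933 to 2.49. Ependymal and choroid plexus markers varied most between libraries, from 35.2 to 301 FPKM in PBS input, 35.6 to 2987 in AAV control input and 2503 to 4494 in KA input. In IP they were at 44.8 to 101 FPKM in KA, within the range of the control groups (17.3 to 243). Oligodendrocyte lineage markers were at 1287 to 2450 FPKM in KA IP against 253 to 1049 in AAV control and 284 to 559 in PBS, with 2 of 7 higher DEGs against AAV control (0 or 1 without any 1 of its samples #1 and #2 or of the KA samples, and 7 without its sample #3) and 6 of 7 against PBS. Of all genes, 6.39% and 8.08% were higher DEGs in these comparisons. The list of immature neuron and progenitor markers summed to 212 to 240 FPKM in KA IP, 319 to 372 in AAV control IP and 224 to 298 in PBS IP. In AAV control input the sum was 121 to 145 FPKM, below that in IP, and which cells carried these transcripts was not tested. In KA IP 1 of 8 was a higher and 4 were lower DEGs against AAV control, where 6.39% and 5.22% of all genes were. Markers of dividing cells were at 19.3 to 20.6 FPKM in KA IP against 20.1 to 22.6 and 13.7 to 15.9, with 1 gene tested.

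Genes that work with intermediate filaments were read from lists of known partners. Plakins are giant linkers that tie filaments to microtubules, actin and junctions. Of 7 linker genes 3 were tested in IP, and all 3 were lower DEGs in KA against AAV control and against PBS, where 5.22% and 9.34% of all genes were lower DEGs. Plec (plectin) was at 14, 12.4 and 14.1 FPKM in AAV control, 6.04, 15.1 and 23.5 FPKM in PBS and 3.99, 4.61 and 3.23 FPKM in KA, below every control library. Plec fell by 1.73 ± 0.183 on the log2 scale against AAV control (adjusted p = 0.00105) and by 1.90 ± 0.378 against PBS (adjusted p = 0.00346). Macf1, which links microtubules to actin, fell by 1.58 ± 0.259 (adjusted p = 0.00598) and by 1.54 ± 0.386 (adjusted p = 0.0107, and 0.050 without PBS sample #3). Dst (dystonin) fell by 1.54 ± 0.421 (adjusted p = 0.0380) and by 1.07 ± 0.341 (adjusted p = 0.0311), and its call against AAV control held in 1 of the 6 fits that left out 1 library and that against PBS in 3. In input 2 linkers were tested and neither was a DEG. Plec had values of -0.34 ± 0.161 (adjusted p = 0.320) and -0.35 ± 0.203 (adjusted p = 0.226), and Macf1 -0.23 ± 0.198 (adjusted p = 0.626) and 0.21 ± 0.108 (adjusted p = 0.182). By edgeR the number with an unadjusted p under 0.05 was 0 in both comparisons, and DESeq2 and limma-voom called 0.

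These linkers are very long, with 18101 exon bases for Plec, 32364 for Macf1 and 41591 for Dst in the FPKM calculation. Length moved with the comparisons of KA with a control group as a whole, in IP and in input. Among genes over 8000 bases the median log2 fold change in IP was -0.21 against AAV control (1597 genes) and -0.31 against PBS (1619 genes), and among genes of 2000 to 4000 bases 0.07 and 0.11. In input the medians were -0.15 (1811 genes) and -0.08 (1835 genes) over 8000 bases, and 0.04 and 0.04 at 2000 to 4000 bases. The lengths of the 9 filament genes were 3238 to 7928 bases. Whether length accounts for part of the linkers' change was not tested.

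Of the 11 other intermediate filament genes (desmin, peripherin, syncoilin, keratins, lens filament genes and B-type lamins), 2 were tested in IP. Bfsp2, known as a lens filament gene, was at 1.91, 2.09 and 5.88 FPKM in AAV control, 3.23, 2.22 and 4.04 FPKM in PBS and 13.1, 10.2 and 8.60 FPKM in KA, above all controls. It rose by 1.67 ± 0.459 against AAV control (adjusted p = 0.0389) and 1.76 ± 0.227 against PBS (adjusted p = 3.75e-04). The first call held in 1 of 6 fits that left out 1 library and the second in all 6. In input Bfsp2 rose against PBS (1.04 ± 0.203, adjusted p = 0.00427, and not a DEG without PBS sample #1), and its value against AAV control was 1.11 ± 0.261 (adjusted p = 0.0560).

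Of 13 genes of the lamina and its links to the cytoskeleton, 10 were tested in IP against AAV control and 0 were DEGs by edgeR, DESeq2 or limma-voom. Of these, 1 had an unadjusted p under 0.05, Syne1 (nesprin-1, 0.61 ± 0.191, adjusted p = 0.0581), and the median was 0.02. Against PBS, 9 were tested, Sun1, an inner nuclear membrane protein that binds lamin A, fell (-1.08 ± 0.215, adjusted p = 0.00343, and not a DEG without PBS sample #3), and Banf1, a chromatin-binding partner of the lamina, rose (0.92 ± 0.182, adjusted p = 0.00344).

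Among 13 genes that modify filaments or their turnover, 11 were tested in IP. Ogt, the enzyme that adds O-linked GlcNAc to proteins including neurofilaments, fell by 1.23 ± 0.346 against AAV control (adjusted p = 0.0413) and by 2.04 ± 0.282 against PBS (adjusted p = 5.33e-04). Its call against AAV control held in 1 of 6 fits that left out 1 library. Padi2, which citrullinates GFAP and vimentin, fell by 0.70 ± 0.173 (adjusted p = 0.0273) and 0.62 ± 0.206 (adjusted p = 0.0357). Cdk5r1, the activator of the neurofilament kinase Cdk5, rose against PBS (1.72 ± 0.285, adjusted p = 0.00139), and its value against AAV control was 1.35 ± 0.438 (adjusted p = 0.0656).

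Neuronal microtubule and growth genes give a comparison for the neurofilament chains. Of 12 such genes 11 were tested in IP, and 3 were higher DEGs against AAV control and 4 against PBS, where 6.39% and 8.08% of all genes were. Stmn3, a microtubule-destabilising stathmin, was at 221, 225 and 146 FPKM in AAV control, 176, 125 and 150 FPKM in PBS and 1145, 1127 and 1196 FPKM in KA. It rose by 2.63 ± 0.226 (adjusted p = 4.97e-04) and 2.95 ± 0.264 (adjusted p = 3.90e-05). Stmn1, stathmin itself, rose by 1.75 ± 0.239 (adjusted p = 0.00289) and 2.09 ± 0.244 (adjusted p = 2.11e-04), and Gap43, a growth cone protein, by 1.05 ± 0.177 (adjusted p = 0.00669) and 1.27 ± 0.187 (adjusted p = 7.53e-04). The Gap43 change against AAV control passed the test in all 6 fits that left out 1 library and was at least 1 in 3 of them. Map2, a dendritic microtubule protein, did not pass (-0.09 ± 0.219, adjusted p = 0.808, and -0.25 ± 0.215, adjusted p = 0.393). In input none of the 12 was a DEG in either comparison by edgeR, DESeq2 or limma-voom, with 1 and 5 genes at an unadjusted p under 0.05.

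The pattern of each filament gene over the 9 IP libraries was set beside that of 9583 genes by the Pearson correlation of log2 CPM, as a description, since all points share the same libraries and 3 groups. Among the members, Vim was most like Nefm (0.985), Lmna (0.973) and Nefl (0.956), and less like Gfap (0.893), whose level in KA sample #3 was the highest of the group while that of Vim was the lowest. Synm was most like Nefh (0.663). Over all genes, the closest to Gfap were Arpc2 (0.990), Gskip (0.986) and Rtl8a (0.982), and those closest to Vim were Spsb1 (0.994), Gpx1 (0.994) and Nudt18 (0.993). Nefl was closest to Vgf (0.993), Ppme1 (0.993) and Hpcal4 (0.993), and Nefm to Gng11 (0.994), Odc1 (0.991) and Hsph1 (0.989). Ina was closest to Rasgrf2 (0.978), Kcnd3 (0.969) and Kcna4 (0.968), Lmna to Afap1l2 (0.992), Galnt6 (0.991) and Ankrd54 (0.989), Synm to Ccdc174 (0.977), Osbpl8 (0.957) and Arid4b (0.954), and Nefh to Mtrf1l (0.942), Sox12 (0.938) and Abcb10 (0.933).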

How the data were processed

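RNA of 9 homogenates was sequenced as 9 IP and 9 input libraries (NEBNext Ultra II RNA). The authors mapped reads to mm10 with STAR, and the submitters' processing notes name featureCounts and edgeR. Versions, strandedness and the handling of reads that fit several genes are not given in the sources used here. The deposited counts are raw reads per gene. The deposited FPKM values were made by the authors from counts, library totals and gene lengths, and 99.8% of 13162 genes checked fit this with 1 length per gene within 1%. Column groups came from the labels and the sequencing runs from the study's methods.

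Counts were tested with edgeR 4.0.16 (R 4.3.3; TMM normalization, quasi-likelihood test, Benjamini-Hochberg adjustment over all genes tested) among genes with FPKM above 1 in all compared libraries. "Rose" and "fell" mean an adjusted p under 0.05, and a DEG also has a log2 fold change of at least 1 in size. Fold changes are given ± SE and levels ± SD. DESeq2 1.42.0, limma-voom (limma 3.58.1), other filters and scalings, left-out libraries, the replicate block and the sequencing run as a covariate were alternatives, and the script was tested on simulated data. Ratios within a library were tested by exact permutation of log2(FPKM + 1) differences. The named genes were all members, Rpl10a, up to 4 DEGs of each partner list (smallest p in IP, KA against AAV control), and the 3 genes most like each member. Map2, Syne1, Sun1, Banf1, Padi2, Cdk5r1, Neurod6 and the B-type lamins were named after their values were seen. The members and lists were chosen with earlier results of these data known.

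Samples with the same number deviated together in KA and AAV control (correlations of deviations from the group means over 9001 genes of 0.348 to 0.551 in IP and 0.351 to 0.550 in input), and so did IP and input of a homogenate (0.155 to 0.751). KA and PBS numbers did not (-0.294 to 0.106), nor did PBS and AAV control numbers in every pair (-0.232 to 0.355). Promoters and their coordinates came from RefSeq (GRCm38.p6), gene locations from the mm10 annotation (GENCODE).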

Additional observations from a re-analysis of the deposited data

Results flagged for a closer look

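By the edgeR interaction term in 12 libraries, the change with KA differed between the IP and input fractions for 3 of the 8 genes tested with each baseline, where 13.2% of all genes did with AAV control and 25.5% with PBS. With AAV control as the baseline, the log2 change in IP exceeded that in input by 1.55 for Nefl (adjusted p = 4.80e-04), 1.18 for Nefm (adjusted p = 0.0142) and 0.86 for Ina (adjusted p = 0.0146). With PBS as the baseline, the excess in IP was 1.42 for Nefl (adjusted p = 7.06e-04), 1.12 for Nefm (adjusted p = 0.00701) and 0.78 for Lmna (adjusted p = 0.0402). Nefm and Ina missed the threshold without AAV control sample #1 or #2 or KA sample #2 (AAV control baseline), and Lmna without PBS sample #1 or #2 or KA sample #1 or #2. With the homogenate as a block, Gfap (adjusted p = 0.0124 and 0.0288) and Nefh (adjusted p = 0.0286 and 0.00312) passed with both baselines, Lmna also with AAV control (adjusted p = 5.98e-04) and Ina also with PBS (adjusted p = 0.0197), so that 6 of 8 genes passed with each. Over all genes, 3286 of 9180 passed with the block for AAV control and 3479 of 9305 for PBS. Both baselines share the KA libraries. By the same term, 8 of 12 astrocyte markers were called lower with each baseline, where 4.32% (AAV control) and 8.88% (PBS) of all genes were. With AAV control, 8 of 12 listed neuron markers were called in either direction, where 9.42% of all genes were. Summed neuron markers were higher in KA IP (287 to 402 FPKM) than in AAV control IP (165 to 192 FPKM) and overlapped PBS IP (173 to 305 FPKM). The part of either marker list in these differences was not tested.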

How the results depend on the processing

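Among alternative values of single genes' log2 fold changes, 1005 kept their direction and side of the threshold, 59 passed it only in the alternative, 32 missed it and 24 changed sign. With the replicate block (homogenate or sample number), the same 5 genes were DEGs in IP against both controls, and 3 in place of 2 were called in each interaction contrast. Over all genes, the interaction calls were 1199 in place of 865 with AAV control and 1364 in place of 1289 with PBS. The genes that passed with the block but not in the main fit are named above, and it changed no other call of a member. With the sequencing run as a covariate (KA against AAV control), adjusted p was also under 0.05 for Ina (0.0155) and Nefh (0.0231) in IP. The same held for Ina (0.0345) and Synm (0.0379) in input, and for Gfap (0.0175), Nefh (0.0362) and Lmna (0.0173, called) in the interaction. Over all genes, 3914 in place of 1960 passed in IP and 1731 in place of 485 in input. KA and PBS share only a number, and the block left 5 DEGs in IP (1635 in place of 1716 over all genes). The cause was not tested for any change below.

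The interaction count with AAV control as the baseline was 2, 4 in run 1 alone (chosen after seeing the data), and 1 (without AAV control sample #1 or #2 or KA sample #2) to 4 (without AAV control sample #3) without 1 sample. Over all genes, 1282 in place of 865 were called in run 1 alone. In input, the log2 Vim to Gfap ratio of KA minus AAV control changed sign to 0.087 with a pseudocount of 0.1, and ranged from -0.39 to 0.044 without 1 library, and that of Nefh to Nefl from -0.25 to 0.13.

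The log2 fold changes that changed sign were near 0 or missed the threshold. With no filter they were Synm, KA against PBS in IP (0.055), and Nefl, PBS against AAV control in IP (-0.014), KA against AAV control in input (-0.0023) and KA against PBS in input (-0.017, and -0.014 with filterByExpr). Fits of more libraries gave 0.012 for Nefh, KA against AAV control in input, and 0.024 for Lmna, IP against input in PBS. Without 1 library, Synm ranged from -0.34 to 0.15 for KA against PBS in IP, -0.16 to 0.17 for PBS against AAV control in input and -0.027 to 0.24 for the interaction with AAV control. In the same fits, PBS against AAV control in IP ranged from -0.028 to 0.21 for Nefl, -0.44 to 0.19 for Nefh and -0.24 to 0.11 for Lmna, and in input from -0.028 to 0.076 for Ina. Nefh ranged from -0.21 to 0.21 for KA against AAV control in input, Nefl from -0.017 to 0.067 for KA against PBS in input, and Lmna from -0.14 to 0.12 for IP against input in PBS.

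Counts of all DEGs moved with the filter on low values and with single libraries. PBS against AAV control went from 0 to 546 in IP (3 with filterByExpr, 253 with no filter) and 365 in input (127 with no filter) without AAV control sample #3. Without 1 sample, 2626 (IP against input, AAV control) became 1647 without sample #1, and 865 (interaction, AAV control) became 514 without AAV control sample #1 and 483 without KA sample #2. With filterByExpr and with no filter, 1130 DEGs became 2121 and 2823 (KA against AAV control, IP), 1716 became 4093 and 5023 (KA against PBS, IP), 292 became 819 and 1169 (KA against AAV control, input), and 580 became 1582 and 1973 (KA against PBS, input). IP against input moved from 2626 to 4329 and 4965 (AAV control), 2818 to 5037 and 5736 (PBS) and 1274 to 2680 and 3146 (KA), and the interactions from 865 to 1693 with no filter (AAV control) and 1289 to 2397 and 2635 (PBS).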
